A study of Mus musculus with 6 samples.

Results

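The genes described here make small non-coding RNAs of the nucleolus, the Cajal body and the cytoplasm: all measured mouse genes named Snord, Snora or Scarna followed by a number, and Rny1, Rny3, Rpph1 and Rprl2. They were chosen by their symbols, and 82 of the 22180 genes with a probe set of their own symbol were members. Of these, 47 were box C/D small nucleolar RNAs (snoRNAs), 26 were box H/ACA snoRNAs, 5 were small Cajal body RNAs (scaRNAs) and 4 were the Y and RNase P RNA genes. The group was taken up after Rny3, Rprl2 and Rpph1 had stood out in these same libraries, so every difference below is a description and supports nothing beyond these libraries.

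The study hybridised mouse RNA to Affymetrix Mouse Gene 2.0 ST arrays, with 1 array for each of 6 groups. Values are on the log2 scale of RMA, an array normalization, so a difference of 1 is 2-fold. The labels give the strain DBA/2J and the sex female for all samples. Induced pluripotent stem (iPS) cells, reprogrammed cells grown with serum, LIF and feeder cells, spent 5 days as floating embryoid bodies, were plated on gelatin and were taken at day 7. They received 1% DMSO together with 100 ng/ml NRG-1 (the DMSO+NRG-1 library), 100 ng/ml NRG-1 alone (NRG-1) or 1% DMSO alone (DMSO). DMSO is a solvent that also prompts stem cells to differentiate. Neuregulin 1 (NRG-1) is a secreted ligand of ERBB receptor kinases. A differentiated culture with neither agent was not among the samples. Adult and neonatal libraries were labelled as cardiomyocytes from mouse hearts, and undifferentiated iPS cells gave the last library. The sources used here do not give ages for these hearts or how many animals each library pooled.

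Nanog, a core pluripotency gene, was between 4.29 and 4.83 in the 5 other libraries and at 11.86 in iPS cells. Of 8 cardiomyocyte markers, at least 2-fold above iPS cells were 5 in DMSO+NRG-1, 3 in NRG-1, 6 in DMSO, 1 in adult and 2 in neonatal. The heart libraries differed in these markers: above iPS cells were 2 of 8 in adult (median -0.35) and 7 of 8 in neonatal (median 0.63). All 6 fibroblast markers were at least 2-fold above iPS cells in each of the 5 other libraries, and 4 of 5 epithelial markers were so in each of the 3 cultures. The Y-linked gene Eif2s3y, at 8.15 in adult and 6.20 in neonatal against 3.27 in iPS cells, is not expected from a female heart. Xist, the RNA of the inactive X chromosome, was at 3.39 in adult, 8.78 in neonatal and 5.97 in iPS cells, so both genes go against the label in adult, and the neonatal library held both RNAs. Library medians over all probe sets lay between 5.13 and 5.26. With 1 library per group there is no replicate error, no difference was tested, and none has a replicate check.

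snoRNAs are guide RNAs. Box C/D snoRNAs are bound by fibrillarin, Nop56, Nop58 and Snu13 and direct the 2′-O-methylation of ribosomal RNA, and box H/ACA snoRNAs are bound by dyskerin, Nhp2, Nop10 and Gar1 and direct its pseudouridylation. Most vertebrate snoRNAs are cut out of the introns of host genes, many of which encode ribosomal or nucleolar proteins or are non-coding RNAs. A few, such as U8 and U13, have promoters of their own, as do the Y RNAs and the RNase P RNA, which are made by RNA polymerase III. scaRNAs carry the same boxes and guide the modification of spliceosomal RNAs in Cajal bodies. A probe set reads any RNA that holds its sequence, so a mature snoRNA, its precursor and the intron of its host could not be told apart here.

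All 82 members were found in the RefSeq gene table of GRCm38.p6. There, 74 lay within the span of another gene, with 60 host genes in all, and 53 of the 74 had a protein-coding host and 21 a long non-coding one. Ribosomal protein genes held 18 members. The 8 members in no host were Rny1, Rny3, Rpph1, Rprl2, Scarna2, Snord13, Snord118 and Snord89. The non-coding genes Snhg12 and 2410006H16Rik held the most members, 4 and 3, and Snhg3 held both copies of the H/ACA snoRNA U17. Many snoRNA host genes start transcription within a run of pyrimidines, the mark of the 5′ TOP class, which also holds the ribosomal protein genes. The start regions of these 3 non-coding hosts are shown because 9 of the members described below lie in them. Each is the 300 bases that RefSeq, on GRCm38.p6, gives around the annotated start, 250 before it and 50 after, read 5′ to 3′ on the strand of the gene. They lie at chr4:132308428-132308727 (plus strand) for Snhg12, at chr4:132353637-132353936 (minus strand) for Snhg3 and at chr11:62602627-62602926 (plus strand) for 2410006H16Rik. Capitals mark the longest unbroken run of C and T that reaches into the 5 bases on either side of the start.
Snhg12: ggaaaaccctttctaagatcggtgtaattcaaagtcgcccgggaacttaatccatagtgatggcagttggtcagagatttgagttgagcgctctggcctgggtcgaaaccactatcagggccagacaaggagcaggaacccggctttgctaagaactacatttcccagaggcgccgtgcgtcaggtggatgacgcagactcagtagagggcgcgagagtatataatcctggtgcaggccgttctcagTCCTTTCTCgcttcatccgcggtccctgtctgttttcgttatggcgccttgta
Snhg3: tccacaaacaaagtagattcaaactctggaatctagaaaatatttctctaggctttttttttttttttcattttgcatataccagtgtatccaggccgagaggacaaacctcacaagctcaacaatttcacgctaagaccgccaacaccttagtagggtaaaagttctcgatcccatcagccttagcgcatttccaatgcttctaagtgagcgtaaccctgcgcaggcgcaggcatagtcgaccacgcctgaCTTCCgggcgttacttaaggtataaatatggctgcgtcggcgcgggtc
2410006H16Rik: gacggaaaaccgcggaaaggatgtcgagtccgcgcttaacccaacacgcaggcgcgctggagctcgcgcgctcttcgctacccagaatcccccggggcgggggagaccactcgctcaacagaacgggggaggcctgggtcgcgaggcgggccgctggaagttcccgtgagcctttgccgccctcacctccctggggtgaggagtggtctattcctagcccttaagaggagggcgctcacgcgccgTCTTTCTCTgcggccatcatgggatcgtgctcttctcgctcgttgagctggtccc

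The run was 9 bases long at Snhg12 and at 2410006H16Rik, and 5 bases at Snhg3. Start regions of 46 of the 60 hosts were found in RefSeq, as 50 windows, and 13 of these (26.0%) held a run of at least 7 bases of C or T there, on the strand of the gene. Of all 32851 mouse windows, 4446 (13.5%) did. A run is a description of the letters and shows no use of a start site.

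The C/D and H/ACA classes were ordered differently over the libraries. The median level of the 47 C/D genes was 9.37 in DMSO+NRG-1, 9.63 in NRG-1, 9.25 in DMSO, 8.91 in adult, 8.64 in neonatal and 8.95 in iPS. That of the 26 H/ACA genes was 7.63 in DMSO+NRG-1, 8.15 in NRG-1, 7.46 in DMSO, 8.06 in adult, 7.92 in neonatal and 8.52 in iPS. The C/D median was highest in NRG-1 and lowest in neonatal, and the H/ACA median was highest in iPS and lowest in DMSO. Over all 22180 genes the library medians lay between 5.51 and 5.63.

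Single genes were counted by the library in which each was highest or lowest. NRG-1 was the highest of the 6 libraries for 36 of 47 C/D genes, 6 of 26 H/ACA genes, 4 of 5 scaRNAs and all 4 Y and RNase P RNA genes, 50 of 82 in all, where 15.8% of all genes had their highest value there. Rny3, Rprl2 and Rpph1, which led to the choice of the group, are among the 4 and among the 50. The C/D, H/ACA and scaRNA counts do not hold them. The iPS library was highest for 14 of 26 H/ACA genes and 7 of 47 C/D genes, beside 27.2% of all genes. Neonatal was lowest for 26 of 47 C/D genes and 2 of 26 H/ACA genes, beside 19.2% of all genes. The lowest library of an H/ACA gene was DMSO for 9 and DMSO+NRG-1 for 8 of 26, beside 11.6% and 12.4% of all genes. Of the 82 members, 79 had a mean level no lower than the median over all values (5.20), so these are mostly bright probe sets. No filter on low values was used, and all 82 enter each count.

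**Figure D1:**
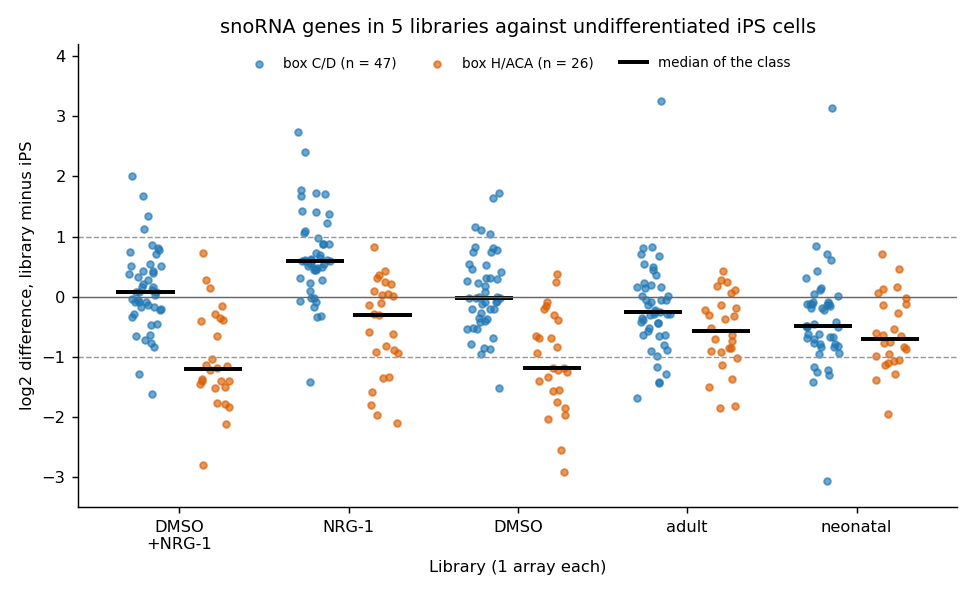
Difference of each box C/D (blue, n = 47) and box H/ACA (orange, n = 26) snoRNA gene from the iPS library, on the log2 scale, in the 5 other libraries; black bars are class medians, dashed lines mark 2-fold. As deposited, the H/ACA medians lie below 0 in all 5 libraries (-1.20 to -0.30), and the C/D medians lie at 0.08, 0.60, -0.02, -0.25 and -0.48 from left to right. Under a housekeeping shift, which leans on the gene B2m in comparisons with iPS, the first of these is -0.39.

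Most of the Y and RNase P RNAs and of the snoRNAs with no host were well above the other libraries in NRG-1. Among them, Rny3, Rprl2 and Rpph1 led to the choice of the group. Y RNAs are short cytoplasmic RNAs bound by the Ro60 protein. Rny3 was at 9.31 in the DMSO+NRG-1 library, 10.92 in NRG-1, 9.41 in DMSO, 9.66 in adult, 8.82 in neonatal and 9.0 in iPS. The NRG-1 value exceeded the next highest, in adult, by 1.26 and the DMSO+NRG-1, neonatal and iPS values lay below DMSO. Rny1 was at 11.18 in the DMSO+NRG-1 library, 11.86 in NRG-1, 11.23 in DMSO, 11.64 in adult, 11.01 in neonatal and 10.97 in iPS. Its NRG-1 value was higher than DMSO by 0.63, less than 2-fold, and the adult library came close to it.

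Rpph1, the RNA subunit of RNase P, the enzyme that trims the 5′ ends of transfer RNAs, was at 11.24 in the DMSO+NRG-1 library, 12.52 in NRG-1, 11.27 in DMSO, 11.14 in adult, 11.08 in neonatal and 11.53 in iPS. NRG-1 stood 0.99 above the next library, iPS, and the 5 other values lay between 11.08 and 11.53. Rprl2, a gene annotated as RNase P RNA-like, was at 7.76 in the DMSO+NRG-1 library, 9.43 in NRG-1, 7.83 in DMSO, 7.83 in adult, 8.04 in neonatal and 7.97 in iPS. Here NRG-1 was apart from all 5 others by 1.39 or more. Against DMSO, the differences in NRG-1 were 1.5 for Rny3, 1.24 for Rpph1 and 1.60 for Rprl2. In DMSO+NRG-1 all 4 genes were slightly below DMSO, with a median of -0.06.

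Snord13 (U13), a C/D RNA associated with the formation of 18S ribosomal RNA, had the widest range of all members, 4.29. It was at 10.06 in the DMSO+NRG-1 library, 12.01 in NRG-1, 9.99 in DMSO, 9.09 in adult, 7.72 in neonatal and 10.78 in iPS. NRG-1 was higher than DMSO by 2.02, the largest positive difference among all 22180 genes in that comparison, and the neonatal library differed from iPS by -3.06. Snord118 (U8), needed for the maturation of 5.8S and 28S ribosomal RNA, was at 7.84 in the DMSO+NRG-1 library, 9.24 in NRG-1, 7.77 in DMSO, 6.77 in adult, 6.97 in neonatal and 8.18 in iPS. Both RNAs were lowest in the heart libraries and highest in NRG-1. Snord89 was at 7.93 in the DMSO+NRG-1 library, 8.84 in NRG-1, 7.88 in DMSO, 7.61 in adult, 6.94 in neonatal and 7.07 in iPS, with both iPS and neonatal low. Scarna2, which guides the modification of U2 spliceosomal RNA, was at 9.39 in the DMSO+NRG-1 library, 10.26 in NRG-1, 9.38 in DMSO, 9.28 in adult, 9.09 in neonatal and 9.25 in iPS, and its 5 values outside NRG-1 lay between 9.09 and 9.39.

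**Figure D2:**
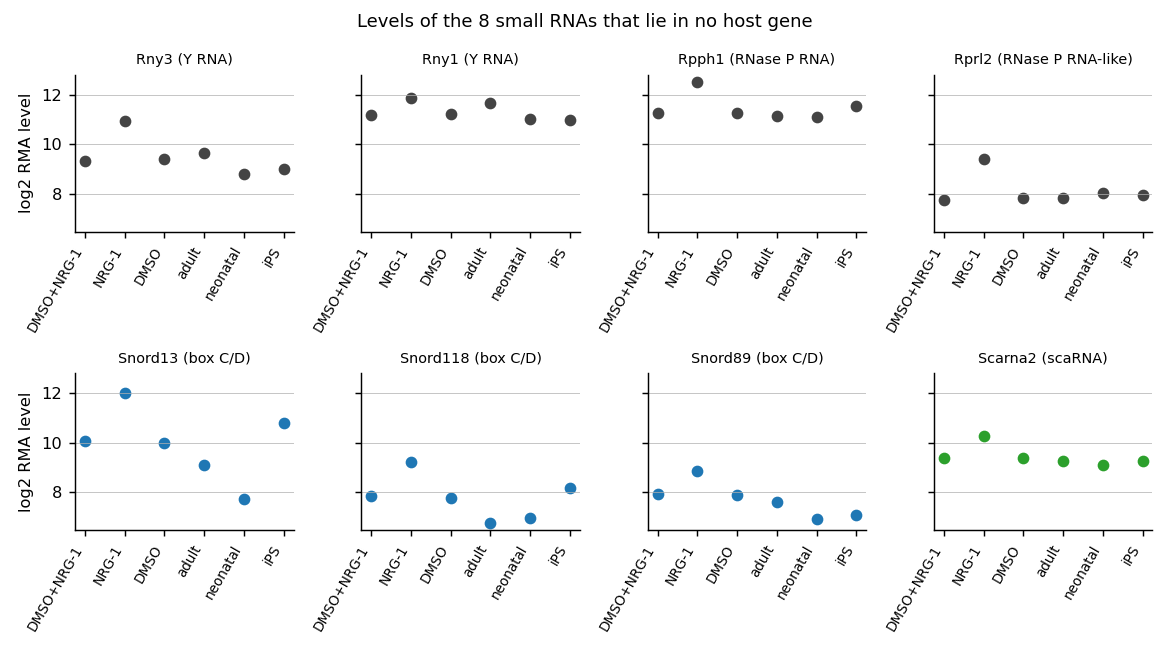
Level (log2 RMA) in each of the 6 libraries of the 8 small RNAs that lie in no host gene; 1 point is 1 array. The NRG-1 point is the highest in all 8 panels, at 10.92 for Rny3 and 12.01 for Snord13, and Snord13 has the widest spread. Rny3, Rprl2 and Rpph1 led to the choice of the group.

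Across the whole group, NRG-1 alone was set against DMSO alone to compare the 2 agents. The difference was above 0 for 77 of 82 members. It was at least 2-fold for 16 members (6 C/D, 5 H/ACA, 2 scaRNAs and 3 of the Y and RNase P RNA genes), and for 0.316% of all genes; no member was 2-fold lower, beside 1.21% of all genes. Of the 70 genes at least 2-fold higher in NRG-1 than in DMSO, the 16 members made up 22.9%, while members are 0.37% of all genes, and 8 of the 20 largest were members. Rny3, Rprl2 and Rpph1 led to the choice of the group. Without these 3 genes, 13 of 79 members were at least 2-fold higher, they made up 19.4% of 67 such genes, and 6 of the 20 largest were members. Among the 12905 genes whose mean reached the median value of 5.20, the share 2-fold higher was 0.341%. Class medians were 0.56 for C/D, 0.49 for H/ACA, 0.88 for scaRNAs and 1.37 for the Y and RNase P RNA genes, and -0.01 for all genes. The median of 1.37 rests on the 3 genes that led to the choice. The other gene of that class, Rny1, differed by 0.63. The error of a difference between libraries could not be measured. Over 961 genes with 2 probe sets, the disagreement of the 2 within the same libraries had an SD of 0.306. It holds no variation between cultures, animals or arrays, so a difference above it need not exceed error. A difference of a single member below that size is within this disagreement. A shift of the libraries to equal housekeeping genes brought the median of all genes to 0.21 and raised the class medians with it. It gave 16 C/D and 9 H/ACA genes at least 2-fold higher. The share of all genes was not counted under this shift, so these 2 counts have no background beside them.

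Members in no host differed by a median of 1.36 and members in a host by 0.51, with 5 of 8 and 11 of 74 at least 2-fold higher in NRG-1 than in DMSO, beside 0.316% of all genes. Without Rny3, Rprl2 and Rpph1, the 5 remaining members in no host had a median of 0.96, with 2 at least 2-fold higher. Among C/D genes in hosts, Snord72, inside the ribosomal protein gene Rpl37, was at 7.94 in the DMSO+NRG-1 library, 9.45 in NRG-1, 7.87 in DMSO, 8.46 in adult, 8.05 in neonatal and 8.72 in iPS. Snord104 was at 10.09 in the DMSO+NRG-1 library, 11.28 in NRG-1, 10.04 in DMSO, 9.06 in adult, 8.95 in neonatal and 9.57 in iPS. Snord72 was higher in NRG-1 than in DMSO by 1.58 and Snord104 by 1.23, and DMSO+NRG-1 stood beside DMSO for both.

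Among H/ACA genes, Snora30, within the span of Srcap, was at 5.83 in the DMSO+NRG-1 library, 7.80 in NRG-1, 6.27 in DMSO, 6.59 in adult, 6.69 in neonatal and 6.96 in iPS. Its NRG-1 value was 1.53 above DMSO, while Srcap itself was at 9.51 in NRG-1 and 9.47 in DMSO. Snora73b, a copy of U17, which takes part in the cleavage of the 18S precursor rather than in modification, was at 7.75 in the DMSO+NRG-1 library, 9.21 in NRG-1, 7.75 in DMSO, 8.02 in adult, 8.29 in neonatal and 9.16 in iPS. The other copy, Snora73a, was at 8.10 in the DMSO+NRG-1 library, 9.17 in NRG-1, 8.23 in DMSO, 8.45 in adult, 8.48 in neonatal and 9.47 in iPS. Both U17 copies, whose start region is printed above as Snhg3, were near their iPS level in NRG-1, and they differed from iPS by -1.40 to -1.25 in the 2 cultures with DMSO. Snora44 (1.22), Snora41 (1.17) and Snora68 (1.12) were the other H/ACA genes at least 2-fold higher in NRG-1 than in DMSO.

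Of the 5 scaRNAs, 4 were highest in NRG-1. Scarna6 was at 8.99 in the DMSO+NRG-1 library, 10.11 in NRG-1, 8.79 in DMSO, 8.10 in adult, 8.25 in neonatal and 9.17 in iPS. Scarna10 was at 9.91 in the DMSO+NRG-1 library, 10.88 in NRG-1, 9.79 in DMSO, 9.14 in adult, 9.28 in neonatal and 9.53 in iPS. They were higher in NRG-1 than in DMSO by 1.32 and 1.09, and Scarna17 and Scarna2 by 0.30 and 0.88. Scarna8, at 5.30 in NRG-1 and 5.33 in DMSO, was not. The other members at or below DMSO in the NRG-1 library were Snora28 (-0.22), Snord8 (-0.19), Snord17 (-0.11) and Snora78 (-0.08).

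**Figure D3:**
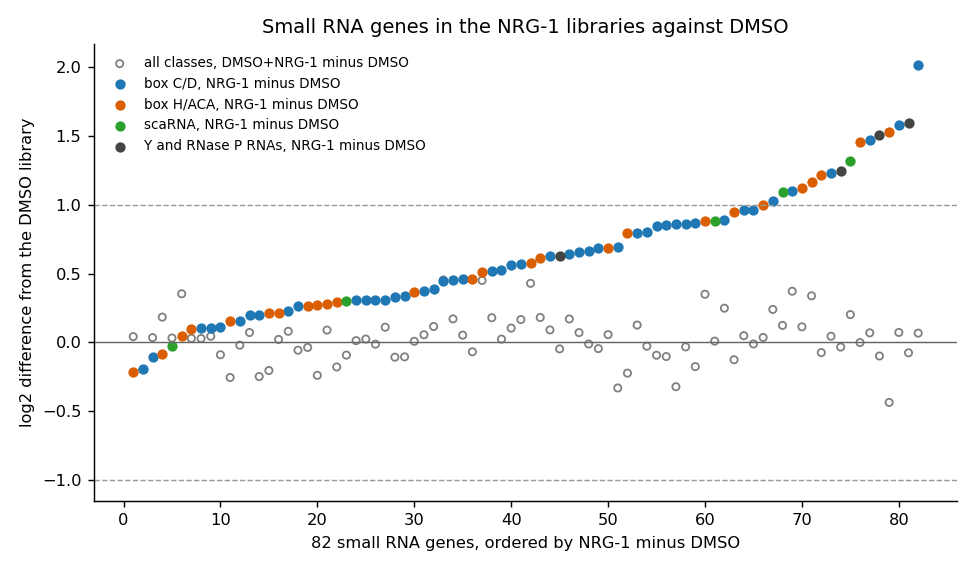
Difference from the DMSO library (log2) for the 82 small RNA genes, ordered by NRG-1 minus DMSO; open grey circles are DMSO+NRG-1 minus DMSO, filled points are NRG-1 minus DMSO coloured by class, dashed lines mark 2-fold. The filled points run from -0.22 to 2.02 with 16 at or above the upper dashed line, and all open circles lie between the dashed lines.

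When NRG-1 was given together with DMSO, the small RNAs, like all genes, were near their DMSO level. DMSO+NRG-1 differed from DMSO by a median of 0.04 over C/D genes and 0.03 over H/ACA genes, with 0 of 82 members 2-fold higher or lower, beside 0.0992% and 0.126% of all genes, whose median was -0.01. These shares leave fewer than 1 member to be called, so the count of 0 says nothing particular about the small RNAs. The probe set disagreement here had an SD of 0.230. Against NRG-1 alone, a comparison added after the data were seen, DMSO+NRG-1 was lower by a median of 0.49 over all members, and 17 members were at least 2-fold lower and 0 higher, beside 0.293% and 0.73% of all genes. The 17 include Rny3 (-1.60), Rprl2 (-1.67) and Rpph1 (-1.28), which led to the choice of the group, and no count was made without them. These comparisons share the libraries, so the values are not separate evidence.

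Markers of some cell types, though not of all, also differed between NRG-1 and DMSO. In NRG-1 minus DMSO, cardiomyocyte markers had a median of -0.55 (2 of 8 at least 2-fold lower) and fibroblast markers -0.73 (1 of 6). Epithelial markers had a median of 0.01 (0 of 5), and 1.21% of all genes were at least 2-fold lower. The part of these markers in the result was not tested. In bulk RNA, fewer cells of a type and less RNA per cell cannot be told apart. RNA was purified on a column after TRIzol extraction, and no deposited value measures how much short RNA passed that step in each library; its part in the difference was not tested. MicroRNA genes had a median of -0.03 over 483 genes in NRG-1 minus DMSO. At least 2-fold higher was 1 (0.316% of all genes) and lower were 10 (1.21%). Only 145 of them in NRG-1 and 143 in DMSO reached the median over all values (5.20). Most were thus dim, and their median cannot show how much short RNA passed the column.

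Against undifferentiated iPS cells, the median of the H/ACA genes was lower in the 3 cultures, and lower still in the cultures that received DMSO. The median over 26 H/ACA genes was -1.20 in DMSO+NRG-1 minus iPS, -0.30 in NRG-1 minus iPS and -1.19 in DMSO minus iPS. At least 2-fold lower were 17 in DMSO+NRG-1 (8.62% of all genes), 6 in NRG-1 (9.51%) and 14 in DMSO (8.62%), and none was 2-fold higher in any of them, beside 8.39%, 7.41% and 8.5% of all genes. Among genes whose mean reached the median value of 5.20, the shares lower were 11.8%, 13.5% and 12.1% in the same order. The shares higher there were 13.2%, 11.5% and 13.3%. The probe set disagreement for comparisons with iPS had an SD of 0.582 to 0.634. A housekeeping shift, which lowers all genes alike here, brought the median of all genes to -0.49, -0.36 and -0.58. It gave H/ACA medians of -1.67, -0.66 and -1.76. Against iPS this shift leans on the housekeeping gene B2m, at 9.07 in iPS and 11.65 in DMSO+NRG-1, 11.68 in NRG-1 and 11.69 in DMSO.

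Snora68 was at 6.52 in the DMSO+NRG-1 library, 7.53 in NRG-1, 6.41 in DMSO, 7.83 in adult, 8.05 in neonatal and 9.33 in iPS. All 3 cultures were below the heart libraries, and DMSO differed from iPS, the highest library, by -2.92. Snora2b, in Kansl2, was at 5.66 in the DMSO+NRG-1 library, 5.81 in NRG-1, 5.24 in DMSO, 6.86 in adult, 7.24 in neonatal and 7.78 in iPS, with the same order of cultures, heart and iPS. Snora34, in the same host, was at 10.35 in the DMSO+NRG-1 library, 10.71 in NRG-1, 10.34 in DMSO, 11.39 in adult, 10.88 in neonatal and 11.53 in iPS, and Kansl2 itself was at 7.65 in the DMSO+NRG-1 library, 7.68 in NRG-1, 7.57 in DMSO, 8.07 in adult, 8.40 in neonatal and 8.45 in iPS. Snora78, in Snhg9, was at 6.57 in the DMSO+NRG-1 library, 6.31 in NRG-1, 6.39 in DMSO, 7.05 in adult, 7.46 in neonatal and 8.42 in iPS, and Snora69, in Rpl39, was at 8.45 in the DMSO+NRG-1 library, 8.89 in NRG-1, 8.27 in DMSO, 9.38 in adult, 9.18 in neonatal and 10.23 in iPS. These snoRNAs were all highest in iPS cells, and in each the 3 cultures were below both heart libraries.

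Above their iPS level were 3 of 26 H/ACA genes in DMSO+NRG-1, 10 in NRG-1 and 2 in DMSO. Snora28, in the translation factor gene Eif5, was at 8.27 in DMSO+NRG-1, 8.01 in NRG-1 and 8.22 in DMSO against 7.98 in iPS. Snora35, in the serotonin receptor gene Htr2c, lay between 3.67 and 4.59 in the 6 libraries. Snora23, in Ipo7, had the narrowest range of the class, 0.46.

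Over C/D genes the medians against iPS were near 0 in the cultures with DMSO and above it in NRG-1. The C/D median was 0.08 in DMSO+NRG-1 minus iPS (-0.39 under the housekeeping shift), 0.60 in NRG-1 minus iPS (0.24) and -0.02 in DMSO minus iPS (-0.59, and 0.03 under cyclic loess). At least 2-fold higher and lower were 4 and 2 of 47 in DMSO+NRG-1, 12 and 1 in NRG-1 and 5 and 1 in DMSO. Under the housekeeping shift these splits were 2 and 7 in DMSO+NRG-1, and 2 and 9 in DMSO, and the shares of all genes were not counted under it. Beside the shares of all genes given above, the C/D counts as deposited were close to or below the background in both cultures with DMSO.

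Snord71 was at 8.91 in the DMSO+NRG-1 library, 9.63 in NRG-1, 8.53 in DMSO, 7.27 in adult, 7.61 in neonatal and 6.90 in iPS. The cultures stood above the heart libraries and iPS, by 2.74 over iPS in NRG-1. Snord111, in the splicing factor gene Sf3b3, was higher than iPS by 1.34 in DMSO+NRG-1, 1.68 in NRG-1 and 1.16 in DMSO, and Snord61, in Rbmx, by 1.13, 1.42 and 1.11 in the same order. Snord43, in Rpl3, ran the other way. It was at 6.39 in the DMSO+NRG-1 library, 6.59 in NRG-1, 6.48 in DMSO, 6.72 in adult, 6.74 in neonatal and 8.0 in iPS, lower than iPS in all 5 libraries. Snord83b, also in Rpl3, was at 8.11 in the DMSO+NRG-1 library, 9.16 in NRG-1, 8.29 in DMSO, 7.90 in adult, 7.45 in neonatal and 8.28 in iPS, so that the iPS library was not set apart for it.

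In the heart libraries both classes had medians below iPS. The adult minus iPS median was -0.25 for C/D and -0.57 for H/ACA genes, and the neonatal minus iPS median was -0.48 and -0.70. At least 2-fold lower in adult were 5 of 47 C/D and 6 of 26 H/ACA genes, where 9.27% of all genes were. In neonatal they were 6 C/D and 7 H/ACA genes, where 7.36% were. Among genes whose mean reached the median value of 5.20, the shares were 12.9% in adult and 9.59% in neonatal, and the C/D counts were near these. Under the housekeeping shift the counts at least 2-fold lower were 11 C/D and 12 H/ACA genes in adult, and 14 C/D and 13 H/ACA genes in neonatal. The shares of all genes were not counted under that shift, so these shifted counts have no background beside them. Only Snord123 was at least 2-fold higher in either heart library, beside 8.55% of all genes in adult and 8.32% in neonatal. Besides Snord13 and Snord118, the lower C/D genes included Snord11, in Nop58, the gene of a C/D core protein, which differed from iPS by -1.43 in adult and -1.41 in neonatal.

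Snord123 was highest in the heart libraries. It was at 6.95 in the DMSO+NRG-1 library, 7.67 in NRG-1, 6.99 in DMSO, 8.52 in adult, 8.39 in neonatal and 5.26 in iPS. Both heart libraries exceeded the cultures, and all 5 exceeded iPS. Its non-coding host Snhg18 was at 5.55 in the DMSO+NRG-1 library, 5.89 in NRG-1, 5.48 in DMSO, 7.18 in adult, 7.48 in neonatal and 5.15 in iPS, also with both heart libraries on top and iPS lowest. Adult was above iPS by 3.26 for Snord123 and by 2.03 for Snhg18, and neonatal by 3.13 and 2.33.

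As over all genes, few members were 2-fold apart between the adult and neonatal libraries. Adult minus neonatal had a median of 0.26 over C/D genes, with 1 at least 2-fold higher (1.73% of all genes) and 1 lower (1.91%), and of -0.02 over H/ACA genes, with 1 higher and 1 lower, counts near those shares; the H/ACA sign was turned by a filter on low means (0.01). The probe set disagreement had an SD of 0.386. Snora75 was higher in adult by 2.22 and Snord13 by 1.37. Snora20, in the chaperonin gene Tcp1, differed by -1.71 and Snord15a, in Rps3, by -1.41.

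snoRNAs of the same host did not always share a pattern. Snhg12, whose start region is printed above, holds 3 H/ACA and 1 C/D gene. The host was at 6.89 in the DMSO+NRG-1 library, 7.30 in NRG-1, 6.75 in DMSO, 6.79 in adult, 6.89 in neonatal and 7.07 in iPS. Snora16a was at 9.26 in the DMSO+NRG-1 library, 9.89 in NRG-1, 9.20 in DMSO, 10.26 in adult, 9.94 in neonatal and 10.77 in iPS. Snora44 was at 7.09 in the DMSO+NRG-1 library, 8.38 in NRG-1, 7.16 in DMSO, 8.27 in adult, 7.89 in neonatal and 8.49 in iPS. Snora61 was at 6.74 in the DMSO+NRG-1 library, 6.93 in NRG-1, 6.72 in DMSO, 7.56 in adult, 7.51 in neonatal and 8.26 in iPS. All 3 H/ACA genes were highest in iPS. The C/D gene Snord99 was at 12.23 in the DMSO+NRG-1 library, 12.31 in NRG-1, 12.20 in DMSO, 11.87 in adult, 11.27 in neonatal and 11.42 in iPS, with the 3 cultures highest and neonatal and iPS lowest. DMSO minus iPS was thus -1.57, -1.33 and -1.55 for the H/ACA genes and 0.78 for Snord99.

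Ncl, which encodes nucleolin, a major protein of the nucleolus, holds Snora75 and Snord82. Snora75 was at 8.11 in the DMSO+NRG-1 library, 8.30 in NRG-1, 8.02 in DMSO, 10.14 in adult, 7.92 in neonatal and 9.87 in iPS. Adult and iPS stood apart from the other libraries, which lay between 7.92 and 8.30. Snord82 was at 12.17 in the DMSO+NRG-1 library, 12.23 in NRG-1, 12.12 in DMSO, 12.27 in adult, 11.75 in neonatal and 12.25 in iPS, with a range of 0.52, among the narrowest of the C/D class. The host was at 10.56 in the DMSO+NRG-1 library, 10.87 in NRG-1, 10.49 in DMSO, 10.68 in adult, 10.88 in neonatal and 11.59 in iPS. Neither snoRNA followed it: in adult, Snora75 was near its iPS level while Ncl was lower than in iPS.

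**Figure D4:**
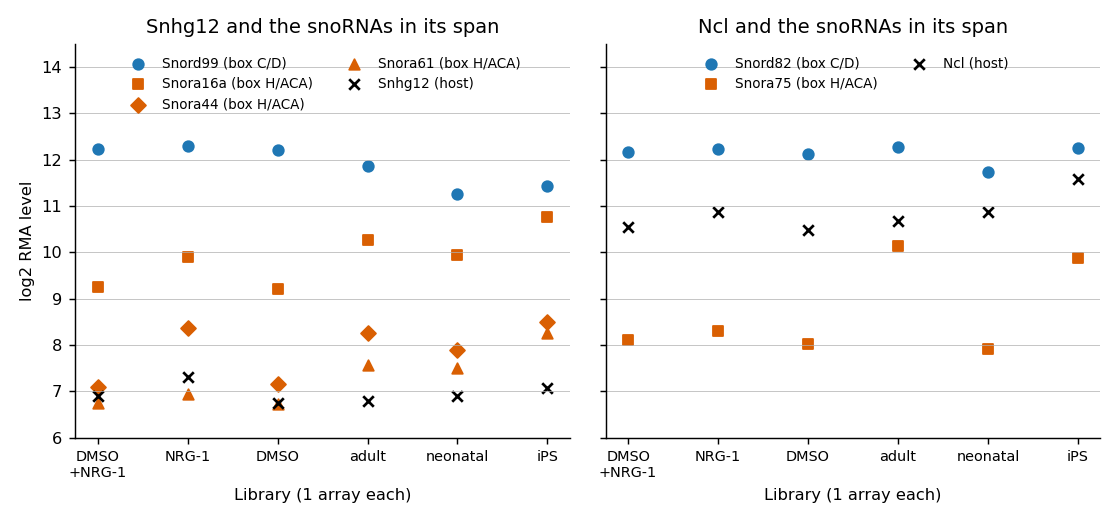
Level (log2 RMA) in the 6 libraries of the snoRNAs within Snhg12 (left) and Ncl (right) and of the hosts (crosses); blue is box C/D, orange box H/ACA. In Snhg12 the 3 H/ACA genes are highest in iPS, and Snord99 is at 12.31 in NRG-1 and 11.42 in iPS; in Ncl, Snord82 stays between 11.75 and 12.27, and Snora75 is at 10.14 in adult and 7.92 in neonatal.

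The 3 C/D genes of 2410006H16Rik moved with their host more closely. The host was at 10.67 in the DMSO+NRG-1 library, 10.85 in NRG-1, 10.77 in DMSO, 9.67 in adult, 9.47 in neonatal and 10.12 in iPS. Snord49a was at 11.06 in the DMSO+NRG-1 library, 11.33 in NRG-1, 10.94 in DMSO, 10.24 in adult, 9.89 in neonatal and 10.68 in iPS. Snord49b was at 12.36 in the DMSO+NRG-1 library, 12.54 in NRG-1, 12.38 in DMSO, 11.55 in adult, 11.33 in neonatal and 11.84 in iPS. Snord65 was at 10.77 in the DMSO+NRG-1 library, 11.17 in NRG-1, 10.72 in DMSO, 10.29 in adult, 10.06 in neonatal and 10.73 in iPS. For the host and all 3 snoRNAs the neonatal library was lowest, and the cultures were above the heart libraries. Snord11 and Snord70 shared Nop58 as host: Snord70 was at 8.77 in the DMSO+NRG-1 library, 9.56 in NRG-1, 8.53 in DMSO, 8.30 in adult, 7.64 in neonatal and 8.95 in iPS, while Nop58 itself was lower in all 5 libraries than in iPS, at 10.81 in the DMSO+NRG-1 library, 10.72 in NRG-1, 10.72 in DMSO, 10.46 in adult, 10.76 in neonatal and 11.48 in iPS.

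Over all members whose host was measured (60 members in 46 hosts), the small RNA and its host were set side by side. In NRG-1 minus DMSO the members had a median of 0.49 and their hosts 0.10, and the member exceeded its host in 49 of 60 pairs. Across pairs, Pearson's r was 0.06 and Spearman's rho 0.02. Within the classes, r was -0.18 and rho -0.31 over 33 C/D pairs, and r was 0.26 and rho 0.27 over 24 H/ACA pairs. In DMSO minus iPS the 33 C/D genes had a median of -0.07 and their hosts -0.67, and 23 exceeded the host. The 24 H/ACA genes had a median of -1.19 and their hosts -0.64, and 17 were below the host. The hosts of both classes were thus lower in DMSO by similar amounts, while the snoRNAs lay on either side of them. Neonatal minus iPS had an r of 0.69 and a rho of 0.43, and adult minus iPS had an r of 0.48 and a rho of 0.18. In both, Snord123 and its host Snhg18 had the largest positive differences, 3.13 and 2.33 in neonatal and 3.26 and 2.03 in adult. The value of r without this pair was not computed. Pairs share libraries and some share a host, so the correlations describe these arrays only.

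**Figure D5:**
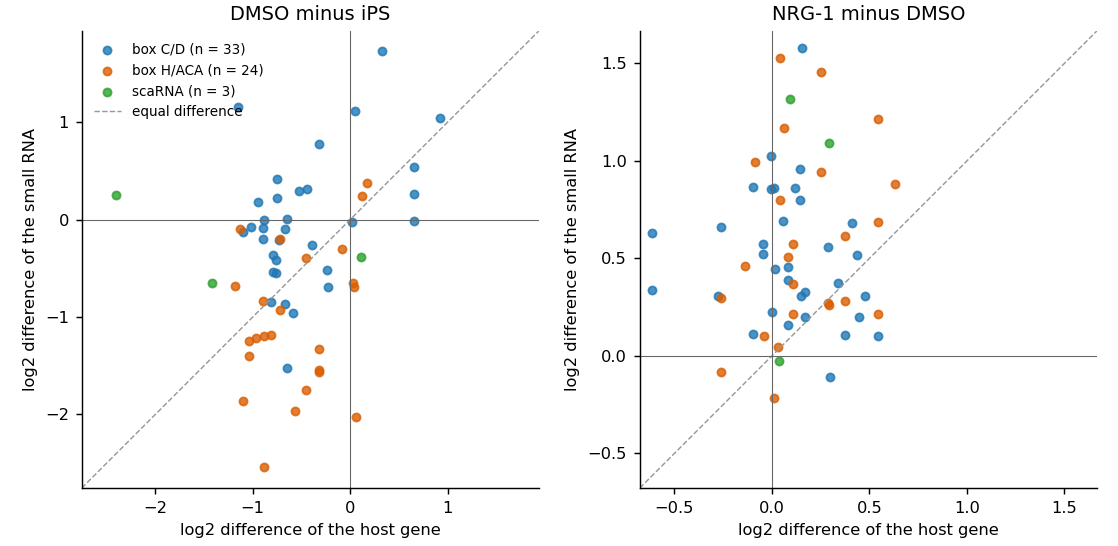
Log2 difference of each small RNA (vertical) against that of its host gene (horizontal) for DMSO minus iPS (left) and NRG-1 minus DMSO (right); blue is box C/D (n = 33), orange box H/ACA (n = 24), green scaRNA (n = 3), and the dashed line marks equal differences. On the left 23 C/D points lie above the line and 17 H/ACA points below it; on the right 49 of 60 points lie above it.

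The measured core protein genes of both snoRNP classes were lower than iPS in all 5 other libraries, 4 of 4 for H/ACA and 3 of 3 for C/D. The 4 H/ACA core protein genes had a median of -1.10 in DMSO+NRG-1, -1.11 in NRG-1, -1.06 in DMSO, -1.30 in adult and -0.77 in neonatal minus iPS. Dkc1, which encodes dyskerin, the pseudouridine synthase of the particle, was at 7.20 in the DMSO+NRG-1 library, 6.31 in NRG-1, 7.09 in DMSO, 8.61 in adult, 9.28 in neonatal and 10.09 in iPS. It was lowest in NRG-1, while the H/ACA genes were higher there than in DMSO. Gar1 differed from iPS by -1.07 and Nhp2 by -1.05 in DMSO, and Nop10 was at 9.95 in DMSO and 10.95 in iPS. Of the C/D core, 3 of 4 genes were measured (Nop56, Nop58 and Snu13), with medians of -0.93 in DMSO+NRG-1, -0.89 in NRG-1, -0.89 in DMSO, -1.02 in adult and -0.72 in neonatal minus iPS.

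In NRG-1 minus DMSO the medians were -0.09 for the H/ACA core, -0.01 for the C/D core, -0.05 for 14 assembly and Cajal body factors, -0.15 for 11 RNase P and MRP proteins and -0.16 for 18 of 19 RNA polymerase III genes. In none of these lists was a gene at least 2-fold higher, beside 0.316% of all genes. The lists are too short for that share to give a called gene, so this says nothing particular about them. Among the RNase P and MRP proteins, Pop4 was at 9.04 in NRG-1 and 10.05 in DMSO, a difference of -1.01. Rpp25 was at 7.5 in the DMSO+NRG-1 library, 7.14 in NRG-1, 7.34 in DMSO, 8.18 in adult, 7.91 in neonatal and 10.01 in iPS, and Rpp40 was at 5.43 in the DMSO+NRG-1 library, 5.03 in NRG-1, 5.29 in DMSO, 6.22 in adult, 6.51 in neonatal and 8.13 in iPS. Both were highest in iPS cells, unlike Rpph1, the RNA they bind, which was highest in NRG-1.

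Ro60, which binds Y RNAs, was at 8.65 in the DMSO+NRG-1 library, 8.59 in NRG-1, 8.74 in DMSO, 8.07 in adult, 8.44 in neonatal and 7.45 in iPS, higher than iPS in all 5 libraries, and it did not set NRG-1 apart from DMSO. Polr3g, a subunit of RNA polymerase III known to be high in pluripotent cells, was at 6.79 in the DMSO+NRG-1 library, 6.69 in NRG-1, 6.42 in DMSO, 6.47 in adult, 6.89 in neonatal and 9.09 in iPS, highest in iPS. Ribosomal protein genes, hosts of 18 members, had a median of 0.16 over 63 genes in NRG-1 minus DMSO. Of these, 1 was at least 2-fold higher, beside 0.316% of all genes. The 18 of 21 listed non-coding host genes that were measured had a median of 0.25, with 12 above 0 and none 2-fold apart. At shares of 0.316% higher and 1.21% lower over all genes, this list is too short for a called gene.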

How the data were processed

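RNA of 6 samples was measured on 1 array each, from 300 ng of total RNA per the labels' protocols. The authors deposited log2 expression values of 41345 probe sets, and the submitters' processing notes name RMA, with no version in the sources used here. RMA gives every array nearly one distribution: after sorting, the largest gap between columns was 0.285, so a shift of all RNA cannot be seen. The table used here has no detection values, so signal over background was not judged; precision is limited by the number of arrays.

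Probe sets were named by the platform annotation: 23521 have 1 symbol, 1814 several and 16010 none. A gene is the mean of the probe sets with its symbol alone. Of 133 probe sets that name a member, 48 name other genes too and were not used, which leaves 31 symbols, Rmrp among them, not analysed here. The 2 usable probe sets of Snora33 disagree by several log2 units in level. They also disagree in their differences: DMSO minus iPS was -2.31 for 1 and -0.05 for the other. Their mean there, -1.18, enters the count of H/ACA genes at least 2-fold lower than iPS. Hosts are genes whose RefSeq span holds the small RNA; strand was not used, although it had been planned, because the table gives none for most small RNAs.

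With 1 library per group nothing was tested. Comparisons are differences of log2 values, called at 2-fold and set beside all 22180 genes. The disagreement of 2 probe sets of 1 gene is the SD, over such genes, of how far their log2 differences lie apart, divided by √2. Members, lists and rules were chosen with earlier results of these data known. Genes named are the Y and RNase P RNAs, in each comparison the 4 members of a class with the largest differences each way, those with the widest and narrowest ranges, partner list genes, hosts of named members and the members of the hosts with most members; a few others complete a count, and for these the values were already known. Alternatives were a filter on mean level, the brightest probe set, cyclic loess (limma 3.58.1, R 4.3.3), a shift to equal medians of 8 measured housekeeping genes, members with 1 probe set, and leaving out multicopy families. The housekeeping genes were Actb, Gapdh, Hprt, Tbp, Ywhaz, Sdha, Pgk1 and B2m. B2m was above iPS by 2.58 to 3.47 in the other libraries, and the rest differed from iPS by -1.57 to 0.37. The shift in comparisons with iPS therefore leans on B2m, and a shift without it was not run. Counting was checked on simulated data with 200 genes set apart (Python 3.11.15, pandas 2.3.3, numpy 2.4.6).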

Additional observations from a re-analysis of the deposited data

How the results depend on the processing

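No paired analysis was possible because each group has 1 library, and no replicate could be left out. All 16 class medians kept within 1.5-fold of their value under each alternative run on them; the largest shifts were 0.13 with the brightest probe set, 0.10 with cyclic loess, 0.06 with the filter on mean level, 0.08 with single probe sets and 0.58 with the housekeeping shift, and leaving out multicopy families, run on the 8 C/D medians only, changed nothing, since no member belongs to one. Medians near 0 turned sign: C/D in DMSO minus iPS was 0.03 with cyclic loess, C/D in DMSO+NRG-1 minus iPS was -0.39 with the housekeeping shift, and H/ACA in adult minus neonatal was 0.01 with the filter and 0.00 with cyclic loess. The housekeeping shift moves all genes alike and changed 11 of 32 counts by more than 1.5 times. Shares of all genes were not counted under it, so the shifted counts have no background beside them. In comparisons with iPS the size of the shift leans on the gene B2m, as described above. In NRG-1 minus DMSO, where the class medians became 0.78 for C/D and 0.70 for H/ACA, members at least 2-fold higher became 16 (from 6) C/D and 9 (from 5) H/ACA genes. Members at least 2-fold lower than iPS became 10 (from 6) H/ACA genes in NRG-1, 11 (from 5) C/D and 12 (from 6) H/ACA genes in adult, 14 (from 6) C/D and 13 (from 7) H/ACA genes in neonatal, 7 (from 2) C/D genes in DMSO+NRG-1 and 9 (from 1) in DMSO; C/D genes 2-fold higher became 2 in DMSO+NRG-1 (from 4) and 2 in DMSO (from 5). Cyclic loess gave 2 C/D genes higher in adult than neonatal (from 1). The 4 Y and RNase P RNA genes moved by less than 1.5-fold with the brightest probe set, cyclic loess and the housekeeping shift. Probe sets that name a member with other genes, an alternative chosen after seeing the data, had NRG-1 minus DMSO medians of 0.50 over 18 C/D and 0.27 over 10 H/ACA probe sets, and DMSO minus iPS medians of -0.50 and -1.17; the C/D median in DMSO+NRG-1 minus iPS was -0.41 there and the H/ACA median in DMSO+NRG-1 minus DMSO was -0.03, both of opposite sign to the members.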

Other observations

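Other structured RNAs outside the group gave values of both kinds. Terc, the telomerase RNA, which carries an H/ACA domain bound by dyskerin, was at 6.87 in the DMSO+NRG-1 library, 6.59 in NRG-1, 6.88 in DMSO, 7.10 in adult, 7.08 in neonatal and 10.39 in iPS. It was higher in iPS cells than in every other library by more than 3 log2 units and was not raised in NRG-1. Rnu3a, a U3 RNA, a C/D RNA needed for the first cuts of the ribosomal RNA precursor, was at 7.95 in the DMSO+NRG-1 library, 8.97 in NRG-1, 8.12 in DMSO, 8.53 in adult, 8.43 in neonatal and 9.26 in iPS, so NRG-1 was above DMSO by 0.85 and iPS was highest. Vaultrc5, a vault RNA, was at 6.0 in the DMSO+NRG-1 library, 6.29 in NRG-1, 5.41 in DMSO, 5.33 in adult, 4.80 in neonatal and 4.76 in iPS, with NRG-1 on top. The 5S ribosomal RNA gene n-R5s136 was higher in NRG-1 than in DMSO by 0.65 and the minor spliceosomal RNA Rnu12 by 0.71. Rn7sk, the RNA that holds the elongation factor P-TEFb inactive, differed by 0.17 between the same libraries and Rprl1 by 0.60.

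The nuclear RNAs Malat1 and Neat1 differed from each other. Malat1 was at 11.75 in the DMSO+NRG-1 library, 12.10 in NRG-1, 11.71 in DMSO, 11.53 in adult, 10.81 in neonatal and 10.92 in iPS, highest in NRG-1. Neat1, the scaffold of paraspeckles, was at 9.95 in the DMSO+NRG-1 library, 9.75 in NRG-1, 9.90 in DMSO, 9.18 in adult, 8.54 in neonatal and 7.56 in iPS, high in all 3 cultures and lowest in iPS. Replication-dependent histone genes, whose mRNAs end in a stem-loop, had a median of 0.18 over 33 genes in NRG-1 minus DMSO, with 2 at least 2-fold higher (0.316% of all genes) and 0 lower (1.21%).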
